A study of Mus musculus with 13 samples.

Results

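The genes described here are 10 genes of the rapid response of a cell to a stimulus or to stress, picked by symbol from the 32285 genes of the count tables: Fos, Fosb, Jun, Junb, Jund, Egr1, Atf3 and Ier2, which are immediate early genes, and Hspa1a and Hspa1b, which encode the inducible heat shock protein Hsp70. All 10 were found, each under a single identifier. They were measured in fibroblasts of the female mouse mammary gland, in 13 libraries of 3′ single-cell RNA sequencing that counts unique molecular identifiers (UMIs). Fibroblasts were taken as barcodes with 500 to 7500 genes, at most 10% mitochondrial UMIs, at least 50 UMIs of Dcn, Lum and Col1a2 per 10000 UMIs and no UMI of Epcam, Pecam1, Rgs5, Sox10, Ptprc or Myog, which left 100523 of 120355 barcodes.

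The libraries fell into 9 groups. Wild-type C57BL/6 females gave 1 library each at puberty (4 weeks), as adults (9 weeks), at day 14.5 of pregnancy, at day 10 of lactation and at day 4 of involution, each from a pool of 2 mice. Wild-type C57BL/6 females of 9 weeks also gave 2 libraries with placebo pellets and 2 with pellets of medroxyprogesterone acetate and estradiol (MPA+E), each library from a pair of mice. These 9 libraries came from cells sorted as negative for lineage markers and CD24. The other 4 libraries came from sorted GFP-positive cells of raGFP-Wnt1 mice (Pdgfra-GFP KI/+ MMTV-Wnt1 T/+, mixed C57BL/6 FVB background), in which the MMTV promoter drives Wnt1 in the mammary epithelium and GFP reports Pdgfra. Hyperplastic gland and tumour were each taken from the same mouse, at 45 weeks in mouse 1 and 17 weeks in mouse 2. The genotype, strain background, age and sorting gate therefore all differ between the raGFP-Wnt1 libraries and the normal ones, and their parts cannot be told apart from that of the lesion.

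Immediate early genes are switched on within minutes of a stimulus, without new protein synthesis, by factors such as SRF and CREB that kinases activate, and their short-lived messages then fall again. Fos, Fosb, Jun, Junb and Jund encode subunits of the AP-1 transcription factor, in which a Fos or a Jun protein pairs with a Jun protein. Egr1 is a zinc-finger factor induced by growth factors, Atf3 is a stress-induced factor of the ATF family, and Ier2 encodes a nuclear protein induced by serum. Hspa1a and Hspa1b are intronless genes for the same chaperone, which HSF1 switches on when proteins unfold. Both sets are also known to respond to the digestion and sorting of tissue. Every library here passed through these steps, so a level set in the gland and a level set on the way to capture cannot be told apart within a library, and replicates are the only yardstick for the handling.

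The promoters of the heat shock pair are shown because the levels of the pair followed each other over the libraries (Spearman rho 0.91). The 250 bases upstream of the start, from RefSeq on GRCm38.p6, differed at 3 positions between Hspa1a (chr17:34972157-34972406, minus strand) and Hspa1b (chr17:34959239-34959488, minus strand). Capitals mark a heat shock element of 2 units, GAANNTTC, which reads the same on both strands.
Hspa1a: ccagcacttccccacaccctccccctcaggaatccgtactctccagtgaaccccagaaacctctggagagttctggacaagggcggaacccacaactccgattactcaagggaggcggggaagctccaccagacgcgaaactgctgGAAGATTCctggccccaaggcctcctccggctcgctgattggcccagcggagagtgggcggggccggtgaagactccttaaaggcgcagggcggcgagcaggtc
Hspa1b: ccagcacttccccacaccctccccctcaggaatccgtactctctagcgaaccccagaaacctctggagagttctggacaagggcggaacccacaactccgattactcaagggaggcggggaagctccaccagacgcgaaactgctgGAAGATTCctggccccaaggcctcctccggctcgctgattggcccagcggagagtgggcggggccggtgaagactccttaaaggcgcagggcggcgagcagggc

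The element lay 104 to 97 bases upstream of the start in both genes, and the same window of Jun held another. Of 32851 promoter windows, 6.69% held it. No window of the members held 3 units (GAANNTTCNNGAA or its reverse complement), which 0.466% of all windows held. The transcripts differ more than the promoters. Over the last 300 bases of the longest transcripts, where 3′ reads begin, the aligned identity was 48.7%, against 86.7% over the whole transcripts, so that tags near the end can be assigned to 1 of the pair while reads from the shared coding part are uncertain.

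For the AP-1 genes the sequence of Fos is shown (chr12:85473640-85473889, plus strand). Capitals mark TGACG, the core of the cyclic AMP response element through which CREB acts.
Fos: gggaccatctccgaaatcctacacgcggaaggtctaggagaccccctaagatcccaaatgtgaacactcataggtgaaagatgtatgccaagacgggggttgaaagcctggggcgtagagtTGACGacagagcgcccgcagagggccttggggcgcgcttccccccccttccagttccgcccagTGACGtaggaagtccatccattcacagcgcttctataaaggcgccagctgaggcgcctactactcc

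This core, searched on both strands, was in the windows of Fos, Fosb, Junb and Atf3, 4 of the 8 members with a window, and in 17.8% of all windows. The full element TGACGTCA, the AP-1 sites TGACTCA and TGAGTCA and the CArG box of SRF were in none of the 8, and in 1.55%, 4.46% and 1.47% of all windows. Only exact matches within the 250 bases were searched, so sites further upstream and inexact sites were not seen. The absence of a motif thus holds for these windows only, and not for the genes. The window of Atf3 (chr1:191183334-191183583, minus strand) lay inside the span of the gene given below and not at its outer end. Egr1 and Ier2 had no entry.

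On GRCm38 (GENCODE M21), Fos (ENSMUSG00000021250) lies at chr12:85473890-85477273, Fosb (ENSMUSG00000003545) at chr7:19302696-19310051, Jun (ENSMUSG00000052684) at chr4:95049034-95052222, Junb (ENSMUSG00000052837) at chr8:84974484-84978718 and Jund (ENSMUSG00000071076) at chr8:70698949-70700616. Egr1 (ENSMUSG00000038418) lies at chr18:34859823-34864984, Atf3 (ENSMUSG00000026628) at chr1:191170296-191218039, Ier2 (ENSMUSG00000053560) at chr8:84661331-84662852, Hspa1a (ENSMUSG00000091971) at chr17:34969190-34972156 and Hspa1b (ENSMUSG00000090877) at chr17:34956436-34959238. No member overlaps another gene on its own strand. On the other strand Jun overlaps Junos, Junb overlaps Prdx2, Jund overlaps Gm11175, Atf3 overlaps Gm24748 and Hspa1a overlaps Gm20481.

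The 13 libraries held 47521842 to 102522735 UMIs over fibroblasts, and their median UMIs per fibroblast ran from 3990.0 in pregnancy to 20256 in tumour 2. Dcn had 3173 to 13434 counts per 1000000 UMIs (CPM) and Col1a2 4316 to 16647 over these barcodes. Summed markers of other cell types reached 149.9 CPM for keratinocytes (2 genes), 59.8 for epithelium (5 genes), 45.7 for endothelium (3 genes), 32.2 for pericytes (3 genes), 7.82 for muscle (3 genes) and 5.97 for immune cells (4 genes). Of the 2 keratinocyte genes, Krtdap was also a leading gene of the progenitor-like fibroblasts described below, so this sum is not specific to keratinocytes. At most 51 barcodes were shared between any pair of libraries (0.474% of the smaller). The puberty, adult and pregnancy libraries stood apart from the other 10. Of 5625 genes with a mean of at least 20 CPM, 535 were higher in each of the 10 than in any of the 3, and 271 were lower. Cebpb, an inflammatory transcription factor, had 48.5 to 60.8 CPM in the 3 and 454 to 1129 in the 10, and Gm42418, a gene overlapping ribosomal RNA sequence, had 2643 to 3313 in the 3 and 5749 to 23432 in the 10. No member separated the libraries in this way, but the split runs through the stages and between normal tissue and the raGFP-Wnt1 libraries. Libraries were sequenced 4 to a run, which library was in which run is not given in the sources used here, and the part of the split in those results was not tested.

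The level of the immediate early genes was high in every library, and highest in hyperplasia. The 8 genes together took 1.57% of all fibroblast UMIs in tumour 2, 1.78% in puberty, 1.98% in pregnancy, 2.24% in lactation, 2.27% in adult gland, 2.28% in tumour 1 and 2.61% in involution. They took 3.17% and 2.77% in the placebo, 2.47% and 2.51% in the MPA+E and 4.56% and 3.89% in the hyperplasia libraries. Both hyperplasia libraries lay above the other 11, and the replicates furthest apart were the tumours of the 2 mice.

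**Figure D1:**
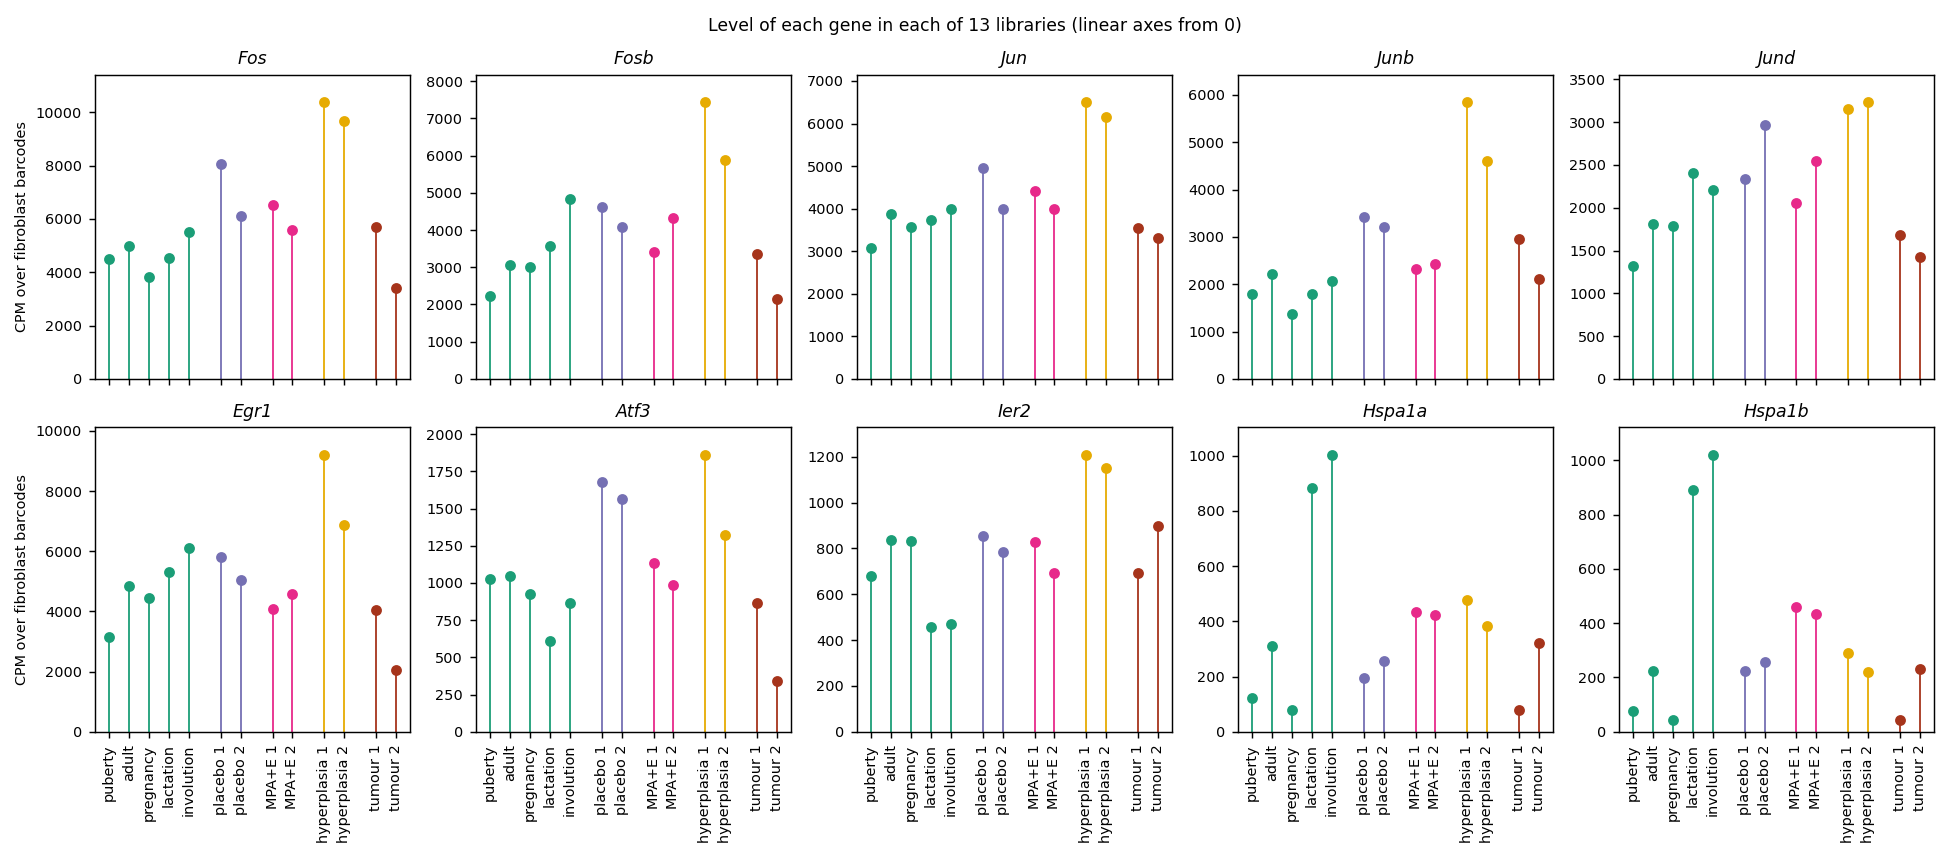
Level of each of the 10 genes (CPM over fibroblast barcodes, linear axes from 0) in each of 13 libraries, 1 point per library, coloured by experiment and group. The 7 genes Fos, Fosb, Jun, Junb, Jund, Egr1 and Ier2 are highest in the hyperplasia libraries, while Hspa1a and Hspa1b are highest in lactation and involution.

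Per gene the libraries differed least for Jun and most for Hspa1b. The highest level was 2.12 times the lowest for Jun, 2.45 for Jund, 2.65 for Ier2, 3.05 for Fos, 3.46 for Fosb, 4.28 for Junb, 4.45 for Egr1 and 5.5 for Atf3. For Hspa1a this fold was 12.7 and for Hspa1b 23.5. The members did not move as 1 block. Over the 13 libraries, as a description, Fos went with Junb (Spearman rho 0.90), Jun (0.87), Fosb (0.81) and Atf3 (0.80), less with Ier2 (0.41), and hardly with Hspa1a (0.24) or Hspa1b (0.14). Hspa1a and Hspa1b had a rho of 0.91 with each other. Outside the members, the genes most like Fos over these libraries, of 5615 considered, were Pnrc1 (rho 0.93), Myd88 (0.93), Ppp1r15a (0.92), Sirt1 (0.90) and Nptn (0.90). Ppp1r15a, which encodes the stress-induced phosphatase subunit Gadd34, ran from 178 to 821 CPM. The genes most like Hspa1a were Swt1 (0.91), Xpr1 (0.84), Hsp90aa1 (0.84), Plau (0.84) and Bbx (0.83). Hsp90aa1, the inducible cytosolic Hsp90, ran from 520.1 to 1571 CPM.

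Measures of RNA quality moved with the levels too. Over the 13 libraries the summed immediate early level had a rho of 0.82 with Gm42418, 0.82 with AY036118 and 0.77 with Lars2, and of -0.22 with the mitochondrial share and 0.23 with the median UMIs per cell. The summed level of the heat shock pair had a rho of 0.68 with Malat1, 0.48 with Lars2, 0.44 with Gm42418 and 0.31 with AY036118, of -0.57 with the mitochondrial share and 0.13 with the median UMIs. These points share libraries that stand apart as described, and the part of these measures in the member levels was not tested.

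The first comparison asked how the members differ between stages of gland development. The heat shock genes differed most. Taken in the order puberty, adult, pregnancy, lactation and involution, Hspa1a stood at 122, 309, 78.7, 883 and 1002 CPM. Hspa1b stood at 75.6, 225, 43.3, 889.9 and 1019 CPM in that order. Lactation and involution were thus high in both genes, pregnancy was lowest, and the adult lay between. The fold of involution over pregnancy was 12.7 for Hspa1a (95% Poisson interval 12.3 to 13.2) and 23.5 for Hspa1b (22.5 to 24.6), and the lowest of these levels rested on 2059 UMIs. No test can be made with a single library per stage, and these intervals cover counting error only.

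The AP-1 genes differed less. Fosb, in the order given, stood at 2231, 3072, 3014, 3577 and 4832 CPM, a fold of 2.17. Fos had 4506, 4998, 3833, 4553 and 5521 CPM in the same order (fold 1.44), and Jun 3069.6, 3878, 3579, 3722 and 3997 (fold 1.3). Junb was highest in the adult (2216 CPM) and lowest in pregnancy (1366), and Jund was highest in lactation (2402) and lowest in puberty (1318). Fos, Fosb, Jun and Jund were thus lowest in puberty or pregnancy and highest in lactation or involution.

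Egr1 was lowest in puberty and highest in involution, with 3153, 4861, 4462, 5298 and 6104 CPM in the order of the stages (fold 1.94). Atf3 and Ier2 were highest in the adult and lowest in lactation. Atf3 had 1025, 1046, 927, 609.5 and 865 CPM, and Ier2 678, 836, 832, 455 and 471. Ier2 in lactation was 0.547 times its level in pregnancy, in the same pair of libraries in which Hspa1a was 11.2 times higher and Fos 1.19 times higher.

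Of the 10 members, Fosb, Hspa1a and Hspa1b reached 2 fold between the highest and the lowest stage, beside 17.9% of the 9566 genes with a mean of at least 5 CPM over the stages. To set the stages beside the spread between replicate libraries, the fold between stages was compared with the largest fold between the 2 libraries of a group. The groups were placebo, MPA+E, hyperplasia and tumour, and 1 CPM was added to each level for these folds. This spread holds differences between mice as well as handling. The stage fold was the larger for Fosb (2.17 against 1.56), Jun (1.3 against 1.24), Junb (1.62 against 1.4), Jund (1.82 against 1.27), Ier2 (1.83 against 1.3), Hspa1a (12.6 against 3.98) and Hspa1b (23 against 5.22). It was not for Fos (1.44 against 1.67), Egr1 (1.94 against 1.95) and Atf3 (1.71 against 2.56). These are 7 of 10 members, where 75.9% of all such genes had a larger stage fold. The stage fold spans 5 libraries and a replicate fold spans 2, so that the share of all genes is the yardstick. For 8 of the 10 genes the largest replicate fold was that between the tumours of the 2 mice, and the exceptions were Jun and Jund (placebo). These mice were 45 and 17 weeks old. Outside the tumours the largest replicate fold was 1.32 for Fos (placebo), 1.34 for Egr1 and 1.4 for Atf3 (both hyperplasia). These lay below the stage folds. The share of all genes without the tumours was not computed.

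The split of libraries described above runs through this comparison. Lactation and involution had 17649 and 12921 CPM of Gm42418 and 539 and 748 of Cebpb, against 2643 to 3313 and 48.5 to 60.8 in the other stages. The hyperplasia libraries had 23432 and 22618 CPM of Gm42418 with 478 and 383 of Hspa1a, and the placebo libraries 17765 and 16332 with 196 and 256. The MPA+E libraries had 13459 and 7657 with 433 and 423, and the tumours 6745 and 5749 with 80.4 and 323. Over the 5 stage libraries the summed epithelial markers ran from 5.43 to 53.5 CPM, the endothelial ones from 5.16 to 41.3 and those of keratinocytes from 42.6 to 60.4, and their part in the stage folds was not tested. With 1 library a stage, the stage and the library cannot be told apart.

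**Figure D2:**
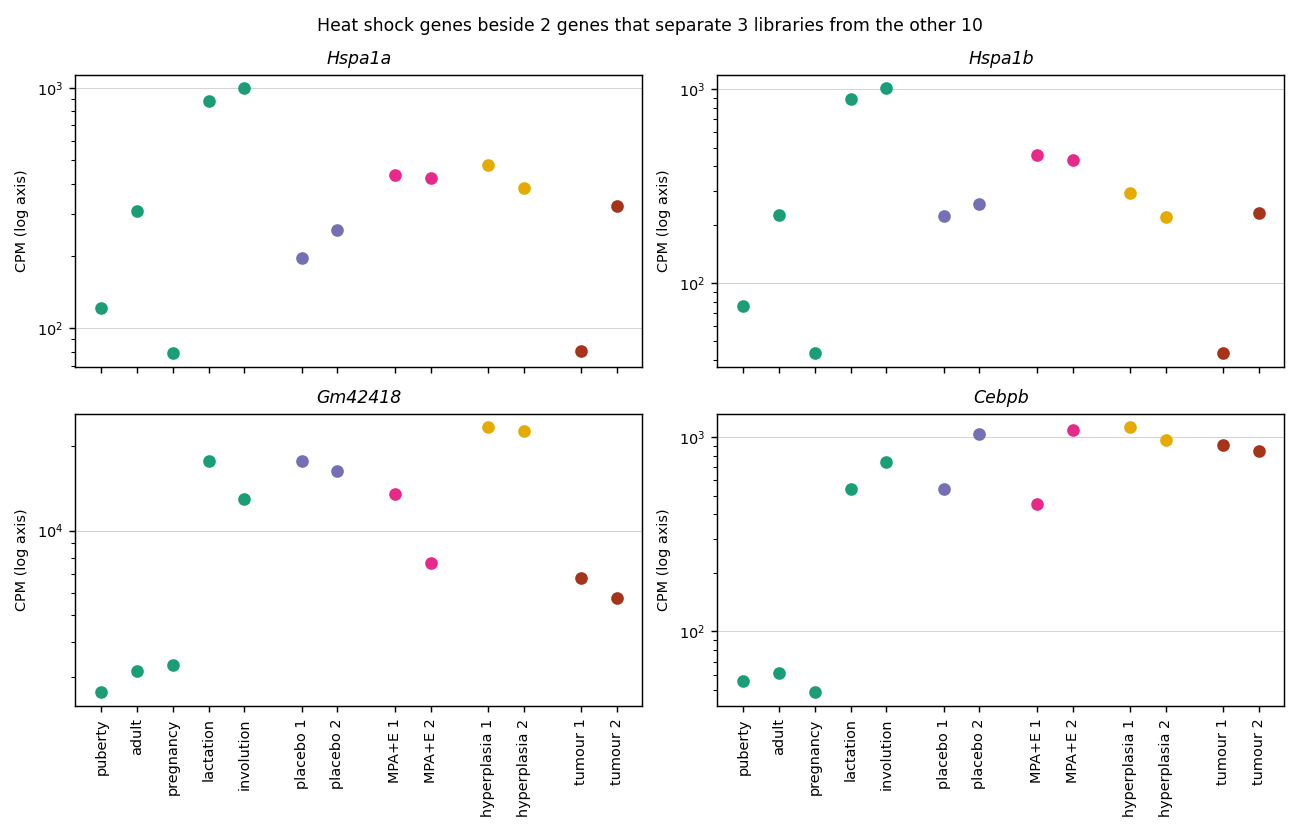
Levels of Hspa1a, Hspa1b, Gm42418 and Cebpb (CPM over fibroblast barcodes, log axes) in each of 13 libraries, 1 point per library. Gm42418 and Cebpb are low in puberty, adult and pregnancy and high in the other 10, while Hspa1a and Hspa1b stand out in lactation and involution and are low in tumour 1.

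Among the other genes of these responses, 19 of 39 immediate early genes with at least 5 CPM reached 2 fold between stages, and 23 passed their replicate fold. Of 25 other heat shock genes 5 reached 2 fold, namely Hsph1, Hspb1, Dnaja4, Hsp90aa1 and Hspa4l, and 19 passed their replicate fold. Over all genes at this level the shares were 17.9% at 2 fold and 75.9% above the replicate fold. The heat shock list was thus near the shares of all genes. Hsp90aa1 had 673 CPM in pregnancy, 935 in puberty, 1245 in adult gland, 1299 in lactation and 1571 in involution, the same lowest and highest stage as Hspa1a. Dnajb1, the Hsp40 partner of Hsp70, had 356 in pregnancy and 441 to 503 in the other stages. Genes named here for reaching 2 fold, and Dnajb1 across stages, were chosen after their values were seen.

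The second comparison asked what MPA+E changes, with 2 libraries per arm. Hspa1b was higher under MPA+E, and it was the only member called in the main fit, which had no replicate block. Hspa1b had 223 and 256 CPM with placebo and 459 and 434 with MPA+E. Hspa1a had 196 and 256 with placebo and 433 and 423 with MPA+E. In both genes the arms did not overlap and the replicates of an arm lay within 1.31 fold. The log2 fold change was 0.90 for Hspa1b (SE 0.14, adjusted p 0.04, edgeR quasi-likelihood) and 0.92 for Hspa1a (SE 0.19, adjusted p 0.0767). This was 1 of 10 members, where edgeR called 4.33% of 15642 genes. With the replicate number as a block edgeR called 4 members, and 2451 of 15642 genes. These members were Hspa1a and Hspa1b (higher) and Atf3 and Junb (lower). Without placebo 1, placebo 2 or MPA+E 2 no member was called (adjusted p of Hspa1b up to 0.204), and with DESeq2 4 members were called.

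The 8 immediate early genes all had lower fitted levels under MPA+E. Without the block edgeR called none of them, though Atf3 and Junb had an unadjusted p of 0.0038 and 0.0192. Atf3 came nearest, with 1676 and 1566 CPM with placebo and 1133 and 983 after treatment (log2 fold change of -0.61, SE 0.12, adjusted p 0.0687). Junb had 3411 and 3206 CPM with placebo and 2316 and 2430.2 with MPA+E (-0.47, SE 0.14, adjusted p 0.16). For these 2 genes and Egr1 the arms did not overlap, so that with the heat shock pair 5 of 10 members did not, beside 43.6% of all genes. Fos had 8059 and 6096 against 6508 and 5575 CPM, and its arms overlapped. DESeq2 called Atf3 and Junb lower. No other immediate early gene of the list was called among 40 tested (8 had an unadjusted p under 0.05 in edgeR), and no other heat shock gene among 25 (5 under 0.05). Over all genes, 2893 of 15642 had an unadjusted p under 0.05 in edgeR, a share near those of both lists. Of 20 upstream regulators, Egfr, the receptor of epidermal growth factor, was higher (log2 fold change 1.09, SE 0.11, adjusted p 0.0121) and Mrtfb, a coactivator of SRF, was lower (-0.61, SE 0.09, adjusted p 0.0347). Gm42418 moved with the arms as well, at 17765 and 16332 CPM in the placebo libraries and 13459 and 7657 in the hormone-treated ones, and so did Malat1 (21874 and 20439.8 against 25374 and 25802). Summed endothelial markers (3 genes) stood at 14.5 to 14.6 CPM with placebo and at 43.9 to 45.7 with MPA+E, and epithelial markers (5 genes) at 27.5 to 29.9 with placebo and 4.96 to 5.13 with MPA+E. The part of these in the member levels was not tested.

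The arms were also set against each other within fibroblast states. The states were clusters named by fixed markers, and the members and related genes had been left out of the clustering. Hspa1b was higher in both MPA+E libraries than in both placebo libraries in 6 of 6 states, and Hspa1a in 5 of 6, the exception being the Dlk1-like state. Of 7779 genes with a mean of at least 5 CPM in each of these states, 0.887% were higher in 6 states without overlap and 3.47% in at least 5. Within states edgeR called Hspa1b in the progenitor-like cells (log2 fold change 1.37, SE 0.17, adjusted p 0.0248) and both genes in the lobular-like cells (Hspa1b 1.43, SE 0.19, adjusted p 0.015; Hspa1a 1.31, SE 0.19, adjusted p 0.0196). In ECM remodelling-like cells the changes were 0.32 (SE 0.19) and 0.45 (SE 0.24), with adjusted p of 0.561 and 0.517. Whether the change differs between states was not tested. Junb was lower in both MPA+E libraries in 6 of 6 states, with fitted log2 fold changes of -0.31 to -0.67 and no call, beside 0.630% of these genes. The share of all genes called was 3.76% in the adipogenesis-regulatory-like state, 0% in the Dlk1 state, 1.09% in ECM remodelling, 2.52% in lobular, 2.81% in preadipocyte and 2.69% in progenitor cells, and 0, 0, 0, 2, 0 and 1 members were called. At an unadjusted p under 0.05 these were 4, 3, 1, 4, 5 and 3 members. Over all genes they were, in the same order, 2010 of 11706, 119 of 2685, 1546 of 12284, 1521 of 10469, 2082 of 12992 and 2021 of 12865.

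The third set of comparisons followed the members from normal gland through hyperplasia to tumour. The AP-1 genes were high in hyperplasia and lower in tumour. Fos had 4506 and 4998 CPM in normal gland (puberty and adult), 10380.1 and 9662 in hyperplasia and 5697 and 3405 in tumour. Junb had 1789 and 2216, then 5847 and 4608, then 2946 and 2109. Jun had 3069.6 and 3878, then 6501 and 6164, then 3552 and 3319. Hyperplasia stood above both other groups in each of the 3 genes with no overlap, and tumour overlapped normal gland.

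Against normal gland, limma-voom called 4 of 10 members higher in hyperplasia and none lower, where it called 14.0% of 16302 genes in either direction and 7.70% of the 16302 as higher. The called genes were Junb (log2 fold change 1.35, SE 0.24, adjusted p 0.0266), Fosb (1.31, SE 0.29, adjusted p 0.037), Jund (1.02, SE 0.20, adjusted p 0.0313) and Jun (0.84, SE 0.18, adjusted p 0.0351). Fos missed the threshold (1.04, SE 0.27, adjusted p 0.0521), as did Egr1 (0.99, SE 0.38, adjusted p 0.119), Ier2 (0.61, SE 0.18, adjusted p 0.069) and Atf3 (0.57, SE 0.45, adjusted p 0.403). Hspa1a (1.12, SE 0.67) and Hspa1b (0.94, SE 0.80) had wide errors, and the adult was 2.53 and 2.98 times above puberty in these genes. The median change of the members was 1.00 and that of all genes -0.01. The groups did not overlap for 9 members, beside 70.6% of all genes. These levels are over all fibroblasts. By the states described below, ECM remodelling-like cells made up 45.5% and 40.8% of the hyperplasia libraries. In a separate clustering they made up 0.857% of puberty and 2.23% of adult. The part of the states in these changes was not tested.

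Without puberty, adult, hyperplasia 1 or hyperplasia 2 no member was called. Each of these fits leaves 1 library in a group, which is taken to vary like the other groups. Over the 6 fits that leave out a library the changes kept their sign, at 1.17 to 1.53 for Junb, 1.11 to 1.52 for Fosb, 0.82 to 1.22 for Jund and 0.71 to 0.99 for Jun. DESeq2 called 7, and so did limma-voom without tumour 1 or tumour 2. The choice of the normal libraries mattered as well. With the placebo libraries in place of puberty and adult, an alternative added after seeing the data, no member was called in hyperplasia. There 1.74% of all genes were called, and limma-voom gave 3 members and 2800 of 16175 genes an unadjusted p under 0.05. The changes came down to 0.49 for Fos (SE 0.28), 0.58 for Fosb (SE 0.26) and 0.63 for Junb (SE 0.23). Jun came down to 0.48 (SE 0.17) and Jund to 0.25 (SE 0.21). Egr1 then stood at 0.53 (SE 0.34), Ier2 at 0.50 (SE 0.18), Hspa1a at 0.91 (SE 0.60), Hspa1b at 0.05 (SE 0.72) and Atf3 at -0.07 (SE 0.45). Placebo is on the same side of the library split as hyperplasia, with Gm42418 at 17765 and 16332 CPM, while puberty and adult had 2643 and 3142.

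**Figure D3:**
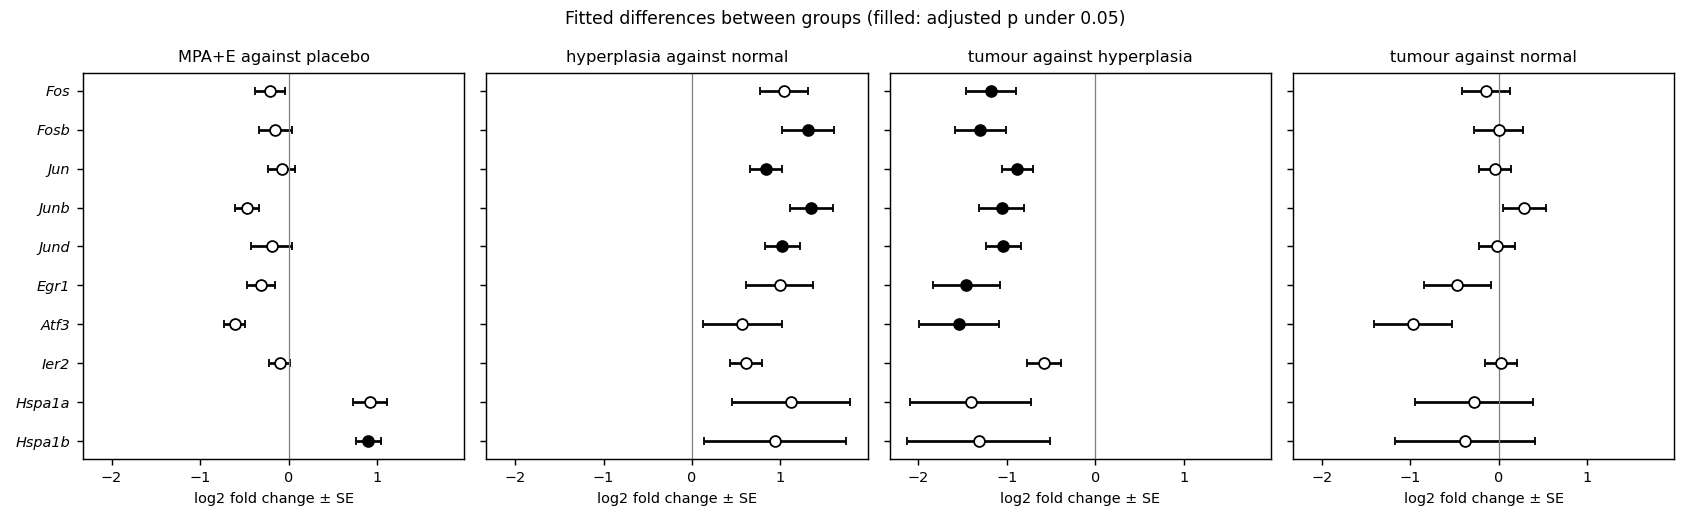
Fitted log2 fold change (point) and its standard error (bar) of each of the 10 genes in 4 comparisons, with filled points for an adjusted p under 0.05 (edgeR for MPA+E, limma-voom for the others). All 10 points lie above 0 in hyperplasia against normal and below 0 in tumour against hyperplasia, and between -0.97 and 0.29 in tumour against normal.

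Against hyperplasia, 7 of 10 members were called lower in tumour and none higher, where limma-voom called 29.3% of all tested genes in either direction and 13.9% of all tested genes as lower. The called genes were the stress factor Atf3 (log2 fold change -1.54, SE 0.45, adjusted p 0.0444), Egr1 (-1.46, SE 0.38, adjusted p 0.0335), Fosb (-1.30, SE 0.29, adjusted p 0.0231), Fos (-1.18, SE 0.28, adjusted p 0.0255), Junb (-1.06, SE 0.25, adjusted p 0.0256), Jund (-1.04, SE 0.20, adjusted p 0.0177) and Jun (-0.88, SE 0.18, adjusted p 0.019). Ier2 missed the threshold (-0.58, SE 0.19, adjusted p 0.0574), and so did Hspa1a (-1.41, SE 0.68, adjusted p 0.153) and Hspa1b (-1.32, SE 0.81, adjusted p 0.244). The median change was -1.24 for the members and -0.01 for all genes. Without hyperplasia 1 or hyperplasia 2 no member was called. Without puberty 4 were, without adult 3, and without either tumour 7 to 9. The tumour libraries also set the size of several changes. Without tumour 1 the change was -2.24 for Atf3, -1.97 for Egr1, -1.58 for Fos, -0.43 for Hspa1a and -0.15 for Hspa1b, and without tumour 2 it was -0.82, -0.95, -0.78, -2.38 and -2.51.

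Since the tumour and the hyperplastic gland came from the same mouse, each mouse gave its own ratio. Fos in the tumour was 0.549 times that in the hyperplastic gland of mouse 1 and 0.352 times in mouse 2. Atf3 was 0.467 and 0.255 times, and Jun 0.546 and 0.538 times. The ratio of Jun was nearly the same in both mice. The heat shock genes were not, with 0.168 and 0.842 times for Hspa1a and 0.149 and 1.05 times for Hspa1b. Tumour 1 held 80.4 CPM of Hspa1a and tumour 2 held 323, a fold of 4.02 between replicates. All 8 immediate early genes were lower in tumour than in hyperplasia in both mice.

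No member was called in tumour against normal gland, with 0 at an unadjusted p under 0.05 in limma-voom and 0 calls by DESeq2 or edgeR, where limma-voom called 22.8% of genes. Atf3 stood at -0.97 (SE 0.44, adjusted p 0.157), and it was the 1 member whose groups did not overlap, beside 64.5% of all genes. Leaving out a library moved Atf3 between -1.68 and -0.26. Without tumour 1, Atf3 (-1.68, adjusted p 0.00171) and Egr1 (-0.98, adjusted p 0.0332) were called lower. For tumour against hyperplasia 9 members had such groups, beside 72.2%. With placebo in place of puberty and adult, Atf3 (-1.61, SE 0.44, adjusted p 0.0444) and Jund (-0.79, SE 0.21, adjusted p 0.041) were called lower in tumour, where 23.0% of genes were called. RNA quality measures moved with the lesions. Gm42418 had 23432 and 22618 CPM in hyperplasia and 6745 and 5749 in tumour, and Malat1 had 29983 and 26055 against 18960.4 and 19123. Neat1 had 3782 and 2547 against 2075 and 1624. Summed epithelial markers (5 genes) had 20.3 to 59.8 CPM in hyperplasia and 1.78 to 4.11 in tumour, and pericyte markers (3 genes) 12.4 to 13.6 and 29.5 to 32.2. Keratinocyte markers (2 genes, with Krtdap also raised in progenitor-like fibroblasts) had 59.3 to 149.9 in hyperplasia and 20.4 to 36.4 in tumour. Endothelial markers (3 genes) had 5.47 to 12.7 and 2.81 to 3.52. The part of these in the member levels was not tested.

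The other immediate early genes moved partly with the members. Of 40 tested, 19 were higher and 0 lower in hyperplasia against normal (median change 0.91), beside 7.70% of all genes higher. With placebo as normal 2 were higher (median 0.11), beside 1.74% of all genes called in either direction. Among the 19 were Cebpb (4.13, SE 0.16, adjusted p 0.00126), Nr4a1 (2.41, SE 0.25, adjusted p 0.00864), Egr3 (2.33, SE 0.46, adjusted p 0.0313) and Id1 (2.28, SE 0.22, adjusted p 0.00721). Nr4a1 is an orphan nuclear receptor, Egr3 a relative of Egr1 and Id1 an inhibitor of basic helix-loop-helix factors. Cebpb is among the genes that separated the 3 libraries from the other 10. In tumour against hyperplasia 11 were lower and 4 higher (median -0.49). Klf4 (-2.05, SE 0.49, adjusted p 0.0274), Arc (-1.95, SE 0.55, adjusted p 0.041), Nr4a3 (-1.67, SE 0.19, adjusted p 0.00533) and Mcl1 (-1.38, SE 0.19, adjusted p 0.00816) were lower. Ccn2, a matricellular target of YAP and TGF-beta signalling, was higher (3.17, SE 0.23, adjusted p 0.00208), with 87.8 and 86.4 CPM in hyperplasia and 645 and 948 in tumour. Tnfaip3, a feedback inhibitor of NF-kB, was higher too (1.58, SE 0.17, adjusted p 0.00489), and so was Ier3 (1.27, SE 0.25, adjusted p 0.0178). Of 20 upstream regulators, 4 were higher and 4 lower in tumour against hyperplasia, beside 29.3% of all genes in either direction and 13.9% lower. Elk3, an SRF partner, was among the higher (1.16, SE 0.15, adjusted p 0.00703). Against normal, 6 were higher and 1 lower in hyperplasia, and 5 higher and 0 lower in tumour. The shares of all genes called in either direction there were 14.0% and 22.8%.

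Of 25 other heat shock genes tested, 5 were lower and 1 higher in hyperplasia against normal (median -0.24), beside 6.29% of all genes lower and a median of -0.01. With placebo as normal none was called, and 3 had an unadjusted p under 0.05 in limma-voom (median -0.18), where 2800 of 16175 genes did. Cryab, a small heat shock protein, was lower (-1.71, SE 0.25, adjusted p 0.0175), as were the Hsp90 cochaperone Fkbp4 (-1.20, SE 0.27, adjusted p 0.0384), the mitochondrial chaperonin Hspe1 (-0.98, SE 0.19, adjusted p 0.0299) and the Hsp70 exchange factor Hsph1 (-0.92, SE 0.23, adjusted p 0.0465). In tumour against hyperplasia 8 were lower and 1 higher, beside 13.9% of all genes lower and 29.3% in either direction. In tumour against normal 8 were lower and 0 higher, beside 10.1% of all genes lower and 12.7% higher. With placebo as normal 5 were lower and 0 higher in tumour, beside 23.0% of all genes called in either direction. Among the 8 in tumour against normal were Hsph1 (-1.46, SE 0.23, adjusted p 0.00876), Cryab (-1.27, SE 0.26, adjusted p 0.0188) and Dnajb1 (-1.24, SE 0.22, adjusted p 0.0136). Among the immediate early list in that contrast 12 were higher, with Ccn2 (5.29, SE 0.23, adjusted p 0.000434), Cebpb (3.88, SE 0.16, adjusted p 0.000434), Ier3 (2.73, SE 0.24, adjusted p 0.00194) and Tnfaip3 (2.57, SE 0.17, adjusted p 0.000957), and 2 were lower, with Cebpd (-1.40, SE 0.26, adjusted p 0.0153). The median change of this list was 0.32. With placebo as normal, 3 of this list of 40 were higher and 5 lower in tumour, with a median of -0.33, beside 23.0% of all genes called.

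Levels differed between fibroblast states inside each library, in orders that recurred over libraries but differed between genes. The UMIs of each gene were summed per state and library, where at least 20 cells were present. A name means likeness to a state by its markers, and a cluster stayed unnamed where too few of its markers were raised, where its leading gene was a marker of another cell type or where most of its cells were called doublets, by a rule set after the clusters were seen. As clusters are set against each other, these values are a description with no test. Jun was lower in the progenitor-like state (Pi16, Dpp4) than in the median of the other named states in 13 of 13 libraries, at 0.533 times in the median (0.295 to 0.682). Ier2 was at 0.489 times (0.265 to 0.712), Junb at 0.565 times (0.399 to 0.815) and Fos at 0.695 times (0.505 to 0.85), each in 13 of 13 libraries. Jund was at 0.771 times (lower in 13), Fosb at 0.751 times (lower in 12) and Egr1 at 0.862 times (0.513 to 1.18, lower in 11). For Junb, Jund and Egr1 the state most often lowest was the cycling one, in 6, 7 and 5 libraries. In placebo 1, Jun had 3345 CPM in progenitor-like, 6103 in preadipocyte-like, 6059 in ECM remodelling-like and 6832 in lobular-like cells. In placebo 2 these were 2499.7, 5023, 5367 and 5288. Progenitor-like cells were the lowest of these 4 states in both libraries. In a finer clustering (resolution 0.5) no cluster of the raGFP-Wnt1 libraries had this name. Their cluster with 8 of 8 progenitor markers raised stayed unnamed, as its leading gene, Krtdap, was on the keratinocyte list. In the other 9 libraries Jun was lower in cells of this name in 9 of 9, at 0.48 times. In the stage libraries this name fell on a cluster led by the milk genes Wap and Csn2, with 5 of 8 progenitor markers raised. There a cluster of 6517 cells, also led by Krtdap and with 8 of 8 raised, stayed unnamed. In the adult, Jun had 1719 CPM in the named cluster and 2022 in the unnamed one. At resolution 0.3, RNA quality measures differed with the progenitor-like state as well. The mitochondrial share was at 0.835 times the median of the other states (lower in 12 of 13 libraries) and Malat1 at 0.826 times (lower in 11). Gm42418 was at 1.12 times (higher in 12) and Lars2 at 1 times (higher in 7, lower in 5). Also at resolution 0.3, an unnamed cluster of the stage libraries held 36 to 155 cells a library, with 8 of 8 progenitor markers raised. It had 371 to 778 CPM of Fos, 258 to 357 of Jun and 410 to 1045 of Malat1, all below the named states. The part of these measures in the order was not tested.

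Atf3 had a different order. It was lower in the ECM remodelling-like state (Crabp1, Pla2g7) than in the median of the other named states in 13 of 13 libraries (0.484 times, 0.297 to 0.853), and this state was the lowest of all in 8 of them, while progenitor-like cells stood at 1.15 times (0.799 to 2.08). In the finer clustering ECM remodelling-like cells were at 0.503 times, again lower in 13 of 13 libraries. Cells named progenitor-like were at 0.621 times, lower in 7 of 9. In the stage libraries that name fell on the cluster led by milk genes, with 641 CPM of Atf3 in the adult. The unnamed cluster of 6517 cells with 8 of 8 progenitor markers raised had 814 there. The level of progenitor-like cells thus depended on which cluster took the name. At resolution 0.3, Atf3 in the adult library had 381 CPM in ECM remodelling-like, 843 in progenitor-like, 953 in preadipocyte-like and 1552 in lobular-like cells.

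The heat shock pair was highest in the ECM remodelling-like state in 12 of 13 libraries for each gene. Hspa1a there was 3.1 times the median of the other states (1.68 to 5.89), and Hspa1b 2.26 times (1.17 to 4.55). In the finer clustering these were 3.08 and 2.06 times, above 1 in 13 of 13 libraries. Malat1 in this state was at 1.32 times (1.01 to 1.74) and the mitochondrial share at 1.2 times (1.09 to 1.53), both higher in 13 of 13 libraries, and their part in the heat shock level was not tested. In placebo 1 Hspa1a had 553 CPM in ECM remodelling-like cells and 123 to 179.9 in progenitor-, preadipocyte- and lobular-like cells. In involution it had 1908 against 697 to 1188, and in tumour 2 it had 836 against 88.5 to 142 in progenitor- and preadipocyte-like cells, with 527 in myofibroblastic-like and 437 in adipogenesis-regulatory-like cells. The exception for both genes was pregnancy, the library with the lowest level of the pair, where Hspa1a had 136 CPM in ECM remodelling-like and 137 in Pappa2-like cells, and Hspa1b had 56.6 in ECM remodelling-like and 57.6 in preadipocyte-like cells. The Dlk1-like state, of 31 to 48 cells in 9 libraries, had the highest Fos in 7 libraries and Jun in 8, but the lowest Hspa1b in 7.

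**Figure D4:**
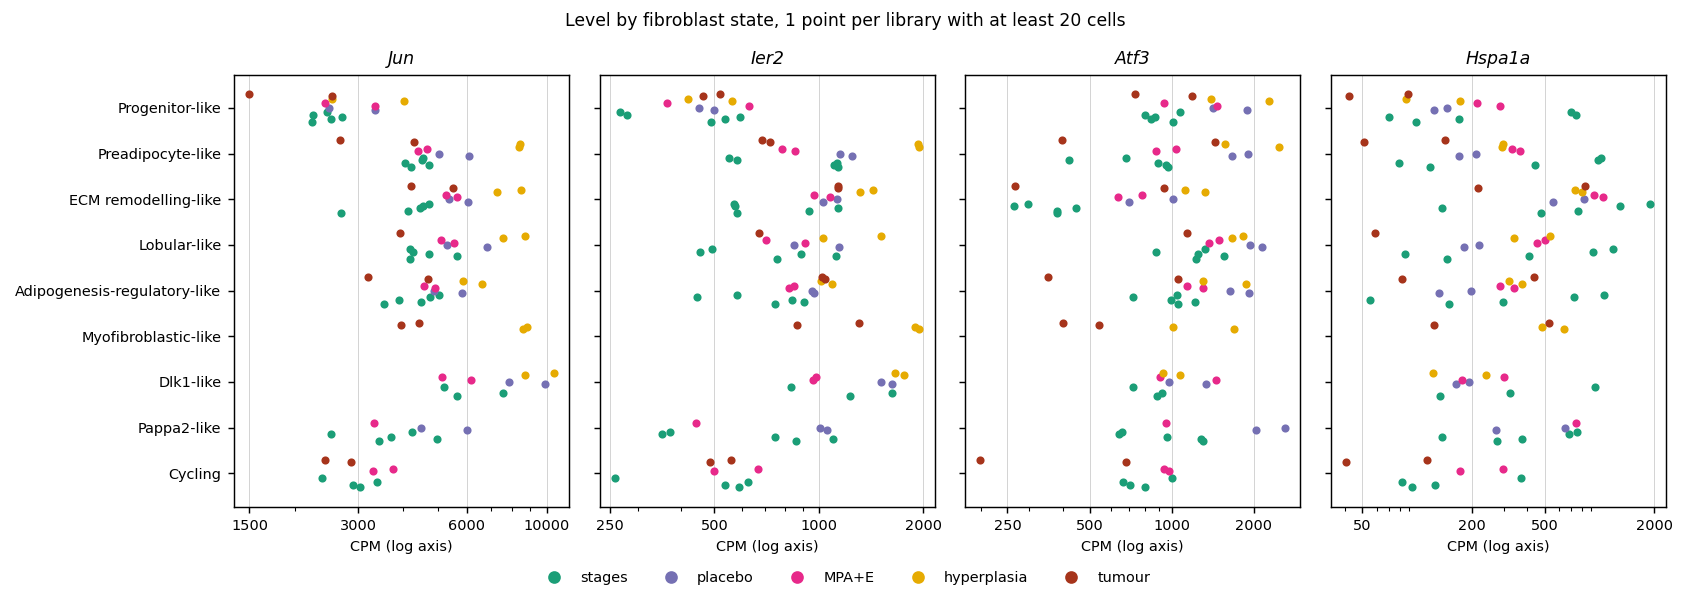
Levels of Jun, Ier2, Atf3 and Hspa1a (CPM, log axes) by fibroblast state, 1 point per library with at least 20 cells in the state, coloured by group. In 13 of 13 libraries progenitor-like cells lie below the median of the other named states for Jun and Ier2, and ECM remodelling-like cells lie below it for Atf3 and above it for Hspa1a.

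The lesions were compared within states as well. Among the 5 states with at least 20 cells in all 4 raGFP-Wnt1 libraries, both tumours lay below both hyperplastic glands in 5 states for Fos, Fosb, Jund and Atf3, in 4 for Jun, Junb and Egr1, in 3 for Ier2 and in 1 for Hspa1a and Hspa1b. None lay above. Of 8632 genes with a mean of at least 5 CPM in each of these states, 8.64% were lower without overlap in 5 states, 16.6% in at least 4, 24.3% in at least 3 and 50.7% in at least 1, and 62.7% were higher in at least 1. In progenitor-like cells Fos had 8235 and 6408 CPM in hyperplasia and 5489 and 1708 in tumour, and in ECM remodelling-like cells 11045 and 12458 against 8448 and 4605. Tumour 2 held 197 progenitor-like cells (4.65% of its fibroblasts) and tumour 1 held 2539 (28.5%). ECM remodelling-like cells made up 45.5% and 40.8% of the hyperplasia libraries and 12.6% and 10.8% of the tumours.

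The immediate early UMIs were also counted cell by cell. Each cell with at least 2000 UMIs was thinned to 2000 UMIs, which left out 86 to 1310 cells a library. The median cell then held 34, 43, 38, 41 and 49 UMIs of the 8 genes over the stages from puberty to involution, 63 and 51 under placebo, 49 and 46 under MPA+E, 87 and 76 in hyperplasia and 46 and 30 in tumour. The 10th percentile in hyperplasia (43 and 32) stood beside medians of 34 to 49 in the stage libraries. Cells without any such UMI made up at most 0.718% of a library (puberty). The lowest 10th percentile was that of lactation, at 9. Cells with under 10 such UMIs of 2000 made up 10.2% in lactation, 7.42% in tumour 2, 6.73% in puberty and 0.453% and 0.452% in the hyperplasia libraries. No cell type known to lack these genes was measured here, so that for both sets of genes a share due to free RNA cannot be told apart.

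**Figure D5:**
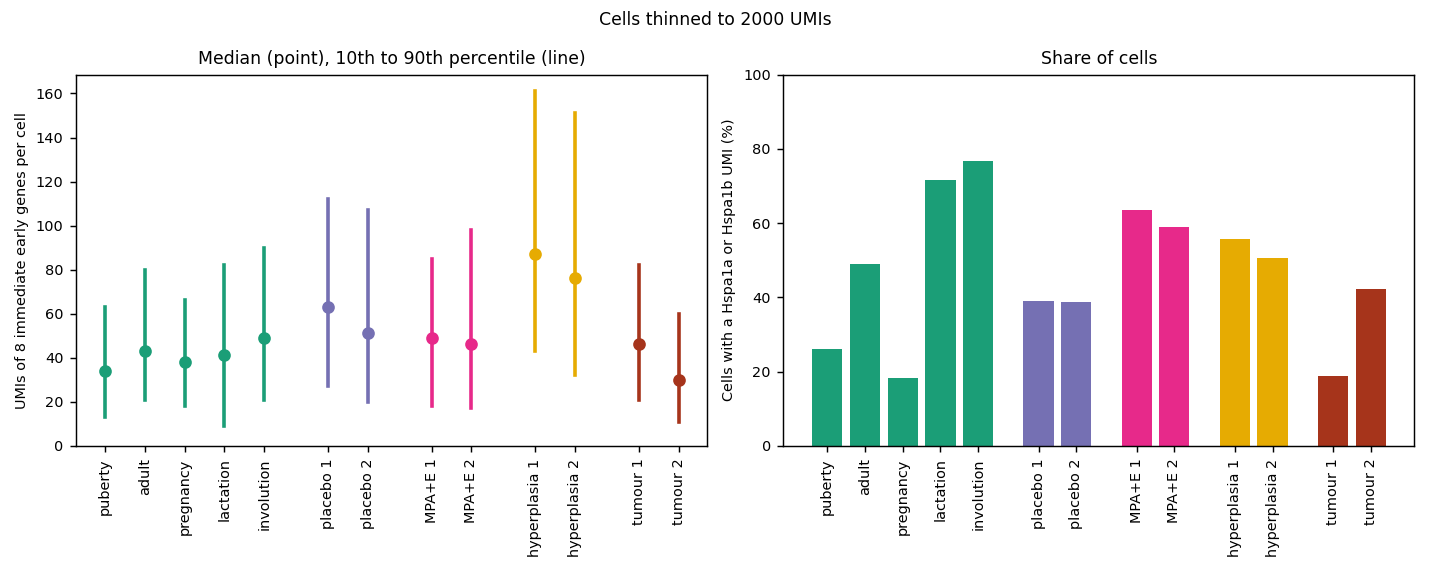
Left, UMIs of the 8 immediate early genes per cell after thinning to 2000 UMIs (point, median; line, 10th to 90th percentile); right, share of thinned cells with a Hspa1a or Hspa1b UMI (bars from 0), for 13 libraries. Medians run from 30 in tumour 2 to 87 in hyperplasia 1, and shares from 18.3% in pregnancy to 76.6% in involution.

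The UMIs of the heat shock pair were counted in the same cells, at a much lower level per cell than the 8 genes together. After thinning, 18.3% of cells in pregnancy, 26.1% in puberty, 48.9% in adult gland, 71.6% in lactation and 76.6% in involution held a UMI of Hspa1a or Hspa1b, and 29.6%, 48.9%, 70.5%, 88.4% and 91.2% did before thinning. The share was 38.9% and 38.8% under placebo, 63.6% and 58.8% under MPA+E, 55.8% and 50.5% in hyperplasia and 18.7% and 42.1% in tumour.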

How the data were processed

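The authors made UMI counts per gene and barcode with Cell Ranger 6.1.2 on mm10, from 3′ libraries, and deposited them as filtered matrices. These deposited counts were not normalized. Here they were summed over fibroblast barcodes per library and given as counts per 1000000 UMIs (CPM), which are not comparable between genes. Libraries were sequenced 4 to a run on a NextSeq2000, and the sources used here do not say which shared a run.

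MPA+E was tested with edgeR 4.0.16 (quasi-likelihood, TMM), and the 6 libraries of puberty, adult, hyperplasia and tumour with limma-voom (limma 3.58.1), with Benjamini-Hochberg adjustment over all genes and a threshold of 0.05. DESeq2 1.42.0 was an alternative. Stages had 1 library each and no test. Pools and mice are the replicates. The exception is the normal group, which joined 1 puberty and 1 adult library, so that its spread holds the difference between these stages. Both tests were also run on simulated counts with known changes, the same spread for every gene and no library split. This does not show how the tests perform on the real libraries.

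Hyperplasia and tumour are paired by mouse in the labels. Their deviations had a correlation of 0.181, and with mouse as a block fitted to these 4 libraries 7 members were called in tumour against hyperplasia, against 5 in the same 4 without it and 7 in the 6-library fit. States came from Seurat 5.3.0, by experiment, at resolution 0.3. Called doublets stayed in, and were removed in an alternative. The sum of 1 marker list is not reported here.

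The members and gene lists were chosen with earlier results of these data known. Named from the lists were up to 4 genes called higher and 4 called lower per comparison, by size of the log2 fold change, and the 5 genes most like Fos and Hspa1a.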

Additional observations from a re-analysis of the deposited data

How the results depend on the processing

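For MPA+E against placebo, 1 member was called, against 4 with DESeq2, 3 with library totals only and 4 with the replicate number as a block. No source used here says what same-numbered libraries share. Their deviations had a correlation of 0.553 over genes (2 pairs), and its origin was not tested. With the block the adjusted p was 0.0326 for Junb, 0.00848 for Atf3, 0.00201 for Hspa1a and 0.00126 for Hspa1b. Leaving out a library gave 0 to 1. For hyperplasia against normal, 4 were called, against 7 with DESeq2, 0 with placebo in place of puberty and adult, and 0 to 7 without a library. For tumour against hyperplasia, 7 were called, against 0 to 9 without a library and 5 with the 4 raGFP-Wnt1 libraries alone and no block. For tumour against normal, 0 were called, against 2 with placebo and 0 to 2 without a library, the 2 being without tumour 1. Within preadipocyte-like cells 0 became 1 at resolution 0.5. There no cluster of the raGFP-Wnt1 libraries was named progenitor-like or myofibroblastic-like. In the stage libraries the progenitor-like name then fell on a cluster led by milk genes. The members at 2 fold (3) and above the replicate fold (7) across stages kept these counts in every alternative run, none of which left out the tumour pair.

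These changes turned sign. With placebo as normal, Atf3 in hyperplasia stood at -0.07, and in tumour Fosb at -0.72, Junb at -0.43 and Ier2 at -0.08. In tumour against normal Fosb stood at -0.03 with a 5% mitochondrial limit, -0.01 with a gate of 100 and -0.00 with no exclusion by other markers, and Jund at 0.01 with library totals only. Leaving out a library moved the MPA+E change between -0.39 and 0.04 for Fosb, -0.17 and 0.02 for Jun and -0.42 and 0.06 for Jund. It moved the tumour against normal change between -0.54 and 0.26 for Fos, -0.34 and 0.35 for Fosb, -0.16 and 0.12 for Jun, -0.21 and 0.19 for Jund, -0.98 and 0.04 for Egr1, -0.13 and 0.19 for Ier2, -1.27 and 0.68 for Hspa1a and -1.58 and 0.78 for Hspa1b. The causes were not tested.

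Over all genes, 678 were called under MPA+E, against 1358 with DESeq2, 2451 with the block and 22 to 900 without a library. In hyperplasia 2280 were called, against 4017 with DESeq2, 281 with placebo and 1 to 4810 without a library. In tumour against hyperplasia 4777 were called, against 3187 with the 4 libraries and 242 to 7120 without a library, and in tumour against normal 3716 against 910 to 5479.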
